A study of Mus musculus with 45 samples.

Results

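Genes that mark lymphocytes and the antibody made by B cells were followed in adipocyte RNA of 45 female mice. The 38 genes were taken by lineage: 10 of B cells and immunoglobulin, 19 of T cells and 9 of natural killer (NK) and cytotoxic cells. A gene was read from the probe sets that carry its symbol alone, and where there were several, from the probe set with the highest mean over the 45 arrays. This gave 37 genes (10 B, 18 T and 9 NK) with 66 probe sets, out of 18193 genes and 45037 probe sets on the array. The expression of Lck, the kinase that starts T cell receptor signalling, was not analysed here, and Lck enters only the counts of start regions below. D mice were heterozygous for the insulin receptor and IRS1 and lacked ApoE (IR+/- IRS1+/- ApoE-/-, 26 mice), and E mice lacked ApoE only (ApoE-/-, 19 mice). All were C57BL/6 females, so every group lacked ApoE, and both heterozygous deletions were in the whole body rather than in fat alone. From 8 weeks of age they ate a Western (W) or a chow (C) diet for 16 weeks, to an age of 24 weeks, or for 8 weeks, to an age of 16 weeks. The groups were DW16 (n = 9), DC16 (n = 5), DW8 (n = 5), DC8 (n = 7), EW16 (n = 8), EC16 (n = 5) and EW8 (n = 6), with no chow group of E mice at 8 weeks. RNA came from adipocytes of parametrial and periovarian fat, 1 Affymetrix MG430-2.0 array per mouse, and all values below are log2 RMA values.

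B cells carry a membrane immunoglobulin held by CD79A and CD79B, and plasma cells, their secreting descendants, hold very large amounts of heavy chain, light chain and J chain RNA. T cells recognise antigen through a receptor held by the CD3 chains, with CD4 or CD8 as co-receptor. NK cells and cytotoxic T cells kill with perforin and granzymes. Visceral fat of the mouse is known to hold all of these cells, among them IgM-secreting B cells in lymphoid clusters under the mesothelium, so their RNA in an adipocyte preparation is read here without a claim on which cell it came from. In bulk RNA, fewer cells of a type and less RNA per cell cannot be told apart.

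Start regions of 4 genes on which the results turn are shown, with 250 bases before and 50 after the RefSeq start in GRCm38.p6. Jchain and Cd3e passed between DW16 and DC16 mice in the first fit given below, though not in all of its alternatives. Gzma and Gzmb varied together from mouse to mouse. Capitals mark the E box letters CAGGTG or, on the other strand, CACCTG (bound by E proteins in B and T cells), and the RUNX letters TGTGGT or ACCACA (bound by RUNX factors in T and NK cells). The matches do not overlap in these windows.
Jchain, chr5:88527848-88528147, minus strand: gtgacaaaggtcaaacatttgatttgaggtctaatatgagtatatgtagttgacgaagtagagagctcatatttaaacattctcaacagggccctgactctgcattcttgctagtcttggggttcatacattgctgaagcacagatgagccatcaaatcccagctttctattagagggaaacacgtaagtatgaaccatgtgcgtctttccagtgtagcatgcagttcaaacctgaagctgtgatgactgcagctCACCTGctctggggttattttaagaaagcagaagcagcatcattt
Cd3e, chr9:45009562-45009861, minus strand: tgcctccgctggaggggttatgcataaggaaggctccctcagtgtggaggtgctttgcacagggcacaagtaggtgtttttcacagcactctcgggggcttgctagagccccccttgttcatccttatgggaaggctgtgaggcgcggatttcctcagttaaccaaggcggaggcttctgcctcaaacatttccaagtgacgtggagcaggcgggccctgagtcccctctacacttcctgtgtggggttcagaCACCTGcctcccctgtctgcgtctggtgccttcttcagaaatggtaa
Gzma, chr13:113100932-113101231, minus strand: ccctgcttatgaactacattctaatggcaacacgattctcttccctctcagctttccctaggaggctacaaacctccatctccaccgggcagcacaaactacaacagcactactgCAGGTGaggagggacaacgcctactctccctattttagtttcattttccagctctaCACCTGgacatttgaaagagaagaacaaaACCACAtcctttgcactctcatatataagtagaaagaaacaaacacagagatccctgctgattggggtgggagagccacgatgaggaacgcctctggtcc
Gzmb, chr14:56262285-56262584, minus strand: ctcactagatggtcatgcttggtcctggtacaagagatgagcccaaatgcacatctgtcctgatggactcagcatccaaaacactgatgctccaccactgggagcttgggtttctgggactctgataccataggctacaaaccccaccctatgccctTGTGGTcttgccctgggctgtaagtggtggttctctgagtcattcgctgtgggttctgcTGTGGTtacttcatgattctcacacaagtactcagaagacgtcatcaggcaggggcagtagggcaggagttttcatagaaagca
The Jchain and Cd3e windows hold 1 E box each, the Gzma window 2 E boxes and 1 RUNX match, and the Gzmb window 2 RUNX matches. RefSeq windows were at hand for 24 of the 38 genes. The E box letters stand in 14 of the 24 (4 of 5 B, 8 of 13 T and 2 of 6 NK genes), where a gene counts once if any of its windows has the letters, against 22.6% of all 27025 genes with a window. Counted by window, this was 16 of 31 (51.6%), against 20.2% of 32851 windows. The RUNX letters stand in 11 (1 of 5 B, 4 of 13 T and 6 of 6 NK genes), against 18.9% of all genes, or in 12 of the 31 windows, against 16.8% of all windows. The octamer ATGCAAAT or ATTTGCAT, a classical element of immunoglobulin promoters, stands in 0 of the 24 and in 1.97% of all genes. Ighm and Igha had no window and are not among the 24, so this count says nothing of their promoters.

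Most arrays spanned nearly the same range of values, with an SD over all probe sets of 2.39 to 2.53 in 35 mice. In 7 DW16 mice (numbers 1 to 7) and 3 EW16 mice (numbers 1 to 3) the SD was 2.11 to 2.35, and these 10 are called narrow-range arrays. Adipocyte markers (8 genes, Adipoq and Lep among them) averaged 11.71 to 12.53 over the groups, and macrophage and endothelial markers averaged 8.66 to 9.35 and 8.78 to 9.94, so RNA of other cells of the fat pad was present in every group. Of the 37 lymphocyte genes 15 had a mean above the median of all probe sets (4 B, 7 T and 4 NK). The other 22 lay in the lower part of the array's range, where a probe set may read little of its own transcript, and their values are given as measured.

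The 3 immunoglobulin genes were lower in D mice after 16 weeks of Western diet. In DW16 against DC16 mice 4 of the 37 genes passed an adjusted p of 0.01 in limma: Ighm, Igha and Jchain were lower and Cd3e was higher, and the other 33 genes did not pass. On the whole array 3.43% of 45037 probe sets passed, 359 higher (0.797%) and 1186 lower (2.63%), or 692 and 754 after a further quantile normalization. By lineage, 3 of 10 B genes fell, 1 of 18 T genes rose and 0 of 9 NK genes passed.

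Ighm encodes the heavy chain of IgM. Its value in the 9 DW16 mice ran between 8.74 and 10.73 with a median of 10.26, against 11.82, 11.77, 12.24, 11.76 and 12.55 in the 5 DC16 mice. Every DW16 mouse lay below every DC16 mouse. On the whole array 37.9% of probe sets had an unadjusted p under 0.05 in limma between these groups. The share of all probe sets without overlap was not counted, here or in the comparisons below. The difference was −2.05 (SE 0.316, adjusted p = 0.00325), a 4.15-fold lower value. Igha, the heavy chain of IgA, ran between 6.61 and 8.78 in DW16 mice with a median of 7.72, against 10.98, 9.42, 8.87, 10.23 and 10.41 in DC16 mice. Here too the groups did not overlap, and the difference was −2.28 (SE 0.389, adjusted p = 0.00477), or 4.86-fold lower. Jchain, the joining chain that links IgM and IgA into polymers, ran between 6.17 and 7.69 in DW16 mice with a median of 6.82, against 8.83, 8.23, 8.82, 7.37 and 9.42 in DC16 mice. The groups overlapped in Jchain through DC16 mouse 4, at 7.37, and the difference was −1.63 (SE 0.315, adjusted p = 0.00673), or 3.10-fold lower.

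**Figure D1:**
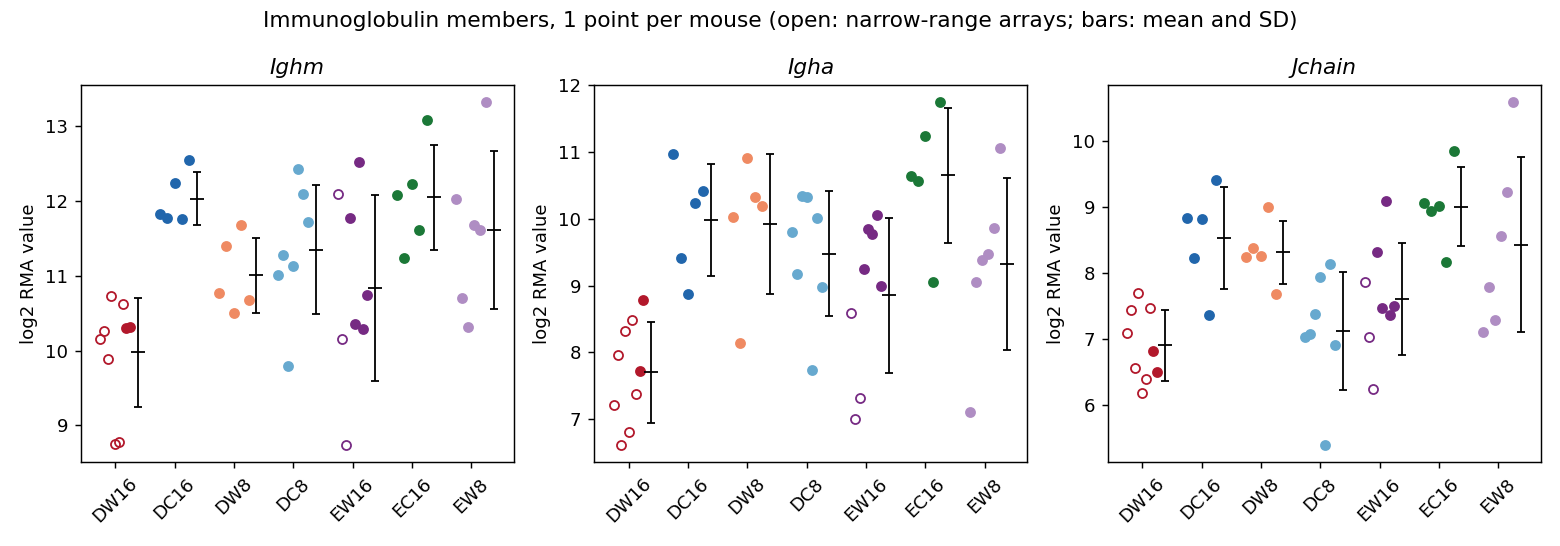
Log2 RMA value (vertical axis) of Ighm, Igha and Jchain in each of the 45 mice by group (horizontal axis), with open points for the 10 narrow-range arrays and bars for mean and SD. For Ighm, DW16 mice lie at 8.74 to 10.73, below the 11.76 to 12.55 of DC16 mice, and DW16 mice 8 and 9, with ordinary arrays, lie among the other DW16 mice. For Igha, mouse 9 is the highest DW16 mouse, at 8.78.

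The 3 genes had lower means than in DC16 mice on DW16 arrays of either kind, of which only 2 had the ordinary range. In DW16 mice 8 and 9, whose arrays had the ordinary range, Ighm was 10.31 and 10.32, Igha 7.72 and 8.78, and Jchain 6.82 and 6.49. Set against the DC16 mice, these 2 mice alone gave −1.72 for Ighm, −1.73 for Igha and −1.88 for Jchain, with adjusted p = 0.155, 0.521 and 0.383 and 0 probe sets of the whole array called. The mean of the 3 genes was 8.28 to 8.53 in these 2 mice, 7.24 to 8.91 in DW16 mice 1 to 7, and 9.79 to 10.79 in DC16 mice. Macrophage markers averaged 9.28 to 9.30 in DW16 mice 8 and 9 and 8.17 to 8.63 in DW16 mice 1 to 7, against 8.60 to 9.54 in DC16 mice. Endothelial markers averaged 9.72 to 9.88 and 8.27 to 8.83 in the same sets of DW16 mice, against 9.41 to 9.98 in DC16 mice, and adipocyte markers 12.17 to 12.50 and 11.01 to 11.89, against 12.15 to 12.61. In mice 8 and 9 these lists lay within the DC16 range and the mean of the 3 immunoglobulin genes below it. Igha of mouse 9, at 8.78, was close to the lowest DC16 mouse, at 8.87. These are 2 mice, and the part of other cells in the immunoglobulin differences was not tested. With array SD as a covariate the differences were −2.02, −2.26 and −1.74 (adjusted p = 0.0843, 0.106 and 0.122), so that 0 of the 37 genes passed. The calls also moved with single mice, as did those of the whole array: 0 genes passed without DC16 mouse 1, 2 or 5, where 119, 51 and 123 probe sets passed on the whole array in place of 1545. Without DC16 mouse 3 or DW16 mouse 2, 3, 5 or 6, 2 genes passed, with 220 to 474 probe sets. Over all 14 such omissions Ighm differed by −2.15 to −1.90 (adjusted p 0.000732 to 0.0121), Igha by −2.56 to −2.03 (0.00104 to 0.0162) and Jchain by −1.93 to −1.41 (0.00294 to 0.0221).

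Other probe sets of the same genes did not all move alike. All 3 probe sets of Igha were lower in DW16 than in DC16 mice (−2.28, −2.02 and −1.69, each called). Of 11 probe sets of Ighm, the pair with the highest means over the 45 arrays was lower (1427351_s_at, −2.05, and 1427329_a_at, −2.56, both called), and the other 9 differed by −0.037 to 0.375 with none called. Those 9 averaged 7.39 or less over the 45 mice, against 11.13 and 9.41 for the called pair. A further 42 probe sets with immunoglobulin symbols were looked up after the values of Ighm had been seen. Of these, 17 had negative differences, and their median was 0.035, against 0.040 over all probe sets. Called were 3 lower and 0 higher, beside 2.63% lower and 0.797% higher on the whole array. The 3 called were all of the kappa light chain: 1452463_x_at of Igkv8-30 (−1.48, SE 0.177, adjusted p = 0.00104), 1452557_a_at of Igk (−0.87, SE 0.185, adjusted p = 0.00894) and 1427455_x_at, which carries several kappa symbols (−2.12, SE 0.452, adjusted p = 0.00915). Constant regions share sequence between probe sets of one chain, so these probe sets are not independent measurements.

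The B cell genes that encode surface and signalling proteins did not pass. None of the 7 passed in DW16 against DC16 mice, and 5 of the 7 had positive differences. Their signs depended on the kind of array. The mean of the 7 genes was 4.95 to 5.40 on the 7 narrow-range arrays of DW16 mice. It was 4.85 to 4.93 in DW16 mice 8 and 9, with ordinary arrays, below the 4.95 to 5.19 of DC16 mice. Of the 7 only Cd22 had a mean above the median of all probe sets. The other 6 averaged 4.31 to 5.47 over the 45 mice, a range where a probe set may read little of its own transcript. They therefore do not show whether B cell transcripts changed. Pax5, the transcription factor that keeps B cell identity, differed by 0.31 (adjusted p = 0.095); it was 5.42 to 5.65 on the 7 narrow-range arrays of DW16 mice and 4.94 and 4.98 in mice 8 and 9, against 4.89 to 5.42 in DC16 mice. Cd79b and Ms4a1, of the B cell receptor and CD20, differed by −0.20 and −0.17. Over the 10 B genes the median difference was −0.066, against 0.040 over all probe sets. It was −0.180 after quantile normalization, −0.122 after median centring, −0.190 with array SD as a covariate, −0.261 without the narrow-range arrays and −0.013 with the replicate block.

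At 8 weeks no immunoglobulin gene was called between the diets, and the signs of their differences were mixed. In DW8 against DC8 mice 0 of 37 genes passed, where 1.08% of probe sets did; 6 genes had an unadjusted p under 0.05, against 19.1% of all probe sets, and SAM called 0. Jchain was 8.24, 8.38, 8.26, 9.00 and 7.68 in the 5 DW8 mice, against 5.38 to 8.13 with a median of 7.07 in the 7 DC8 mice. Only 2 values crossed, DC8 mice 4 and 6 lying above the lowest DW8 mouse. The difference was 1.19 (SE 0.373, adjusted p = 0.0842), opposite in sign to that at 16 weeks. Ighm differed by −0.35 and Igha by 0.44, each less than its SE of 0.363 and 0.482.

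The change of the diet effect with its duration was tested directly in D mice. The diet difference at 16 weeks minus that at 8 weeks was −2.83 for Jchain (SE 0.518, adjusted p = 0.0161), −2.72 for Igha (SE 0.658, 0.0257) and −1.71 for Ighm (SE 0.512, 0.0456), and none of the 37 genes passed 0.01 (7 had an unadjusted p under 0.05, against 27.7% of all probe sets). On the whole array 2 probe sets passed (0.00444%), and 1 of these was 1452463_x_at of Igkv8-30, at −2.33 (SE 0.347, adjusted p = 0.00899). Without DW16 mouse 8 or without mouse 9, 2 of the 37 genes passed, but so did 3037 and 1591 probe sets of the whole array. Without DC16 mouse 4 there was 1, with 45 probe sets.

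Set against other D mice fed the Western diet for 8 weeks, DW16 mice were lower than DW8 mice in 2 of the 37 genes. On the whole array 5.41% of probe sets passed (4.48% lower), so the count of genes is near the share of all probe sets. Igha fell by 2.22 (SE 0.430, adjusted p = 0.00531): DW16 mice had 6.61 to 8.78, against 10.03, 8.14, 10.91, 10.33 and 10.19 in DW8 mice. Of the DW8 mice, mouse 2 lay inside the DW16 range. Jchain fell by 1.41 (SE 0.262, adjusted p = 0.00451), with DW16 values of 6.17 to 7.69 and 1 of 5 DW8 mice, at 7.68, just inside that range. Ighm differed by −1.03 (adjusted p = 0.0381). Both calls were lost without DW8 mouse 1, 3 or 4 (208, 209 and 514 probe sets in all, in place of 2436), and 1 was lost without DW8 mouse 2 or 5 (213 and 720). Both were also lost without the narrow-range arrays (−1.67 for Igha, adjusted p = 0.325, and −1.66 for Jchain, 0.114) and with array SD as a covariate (−2.18, 0.122, and −1.66, 0.0651). On chow, 0 of 37 genes passed in DC16 against DC8 mice, where 0 probe sets passed on the whole array and 3 of the genes had an unadjusted p under 0.05, against 8.74% of all probe sets; Jchain differed most, by 1.41 (SE 0.419, adjusted p = 0.323), with DC16 at 8.53 ± 0.78 and DC8 at 7.12 ± 0.90 (SD, n = 5 and 7).

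In E mice the same 3 genes had lower means after 16 weeks of Western diet but none passed. In EW16 against EC16 mice 0 of 37 genes passed, where 2.66% of probe sets did (122 higher and 1078 lower, or 429 and 758 after quantile normalization), and 11 genes had an unadjusted p under 0.05, against 27.7% of all probe sets. Jchain ran between 6.23 and 9.09 in the 8 EW16 mice with a median of 7.48, against 9.07, 8.93, 9.02, 8.16 and 9.86 in EC16 mice, a difference of −1.40 (SE 0.397, adjusted p = 0.0415). With array SD as a covariate it was −0.76 (adjusted p = 0.159). Igha ran between 7.00 and 10.06 in EW16 mice with a median of 9.12, against 10.64, 10.57, 11.24, 9.05 and 11.75 in EC16 mice, a difference of −1.80 (SE 0.566, adjusted p = 0.0624). Ighm differed by −1.21 (SE 0.550, adjusted p = 0.170), and its EW16 values, 8.74 to 12.53, spread over more than 3 units. In each of the 3 genes EW16 mice reached into the EC16 range. The 5 EW16 mice with ordinary arrays had 8.99 to 10.06 for Igha, and the 3 with narrow-range arrays 7.00 to 8.59.

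The diet effect was not shown to differ between genotypes. The D effect minus the E effect at 16 weeks was −0.84 for Ighm, −0.48 for Igha and −0.23 for Jchain; 0 of 37 genes and 0 probe sets passed, and 3 genes had an unadjusted p under 0.05, against 6.31% of all probe sets. DW16 against EW16 mice gave −0.86 for Ighm, −1.15 for Igha and −0.71 for Jchain, with 0 genes and 0 probe sets past the threshold (8 genes at an unadjusted p under 0.05, all lower in DW16, against 14.6% of all probe sets, 7.90% lower). DW8 against EW8 mice likewise gave 0 genes and 0 probe sets (1 gene at an unadjusted p under 0.05, against 4.13% of all probe sets). DC16 against EC16 mice gave 0 genes, with 0.00222% of probe sets called and 6 genes at an unadjusted p under 0.05, all lower in DC16, against 6.27% of all probe sets (2.86% lower); Ms4a1 differed by −0.64 and the co-stimulator Cd28 by −0.40 (adjusted p = 0.764 for both).

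**Figure D2:**
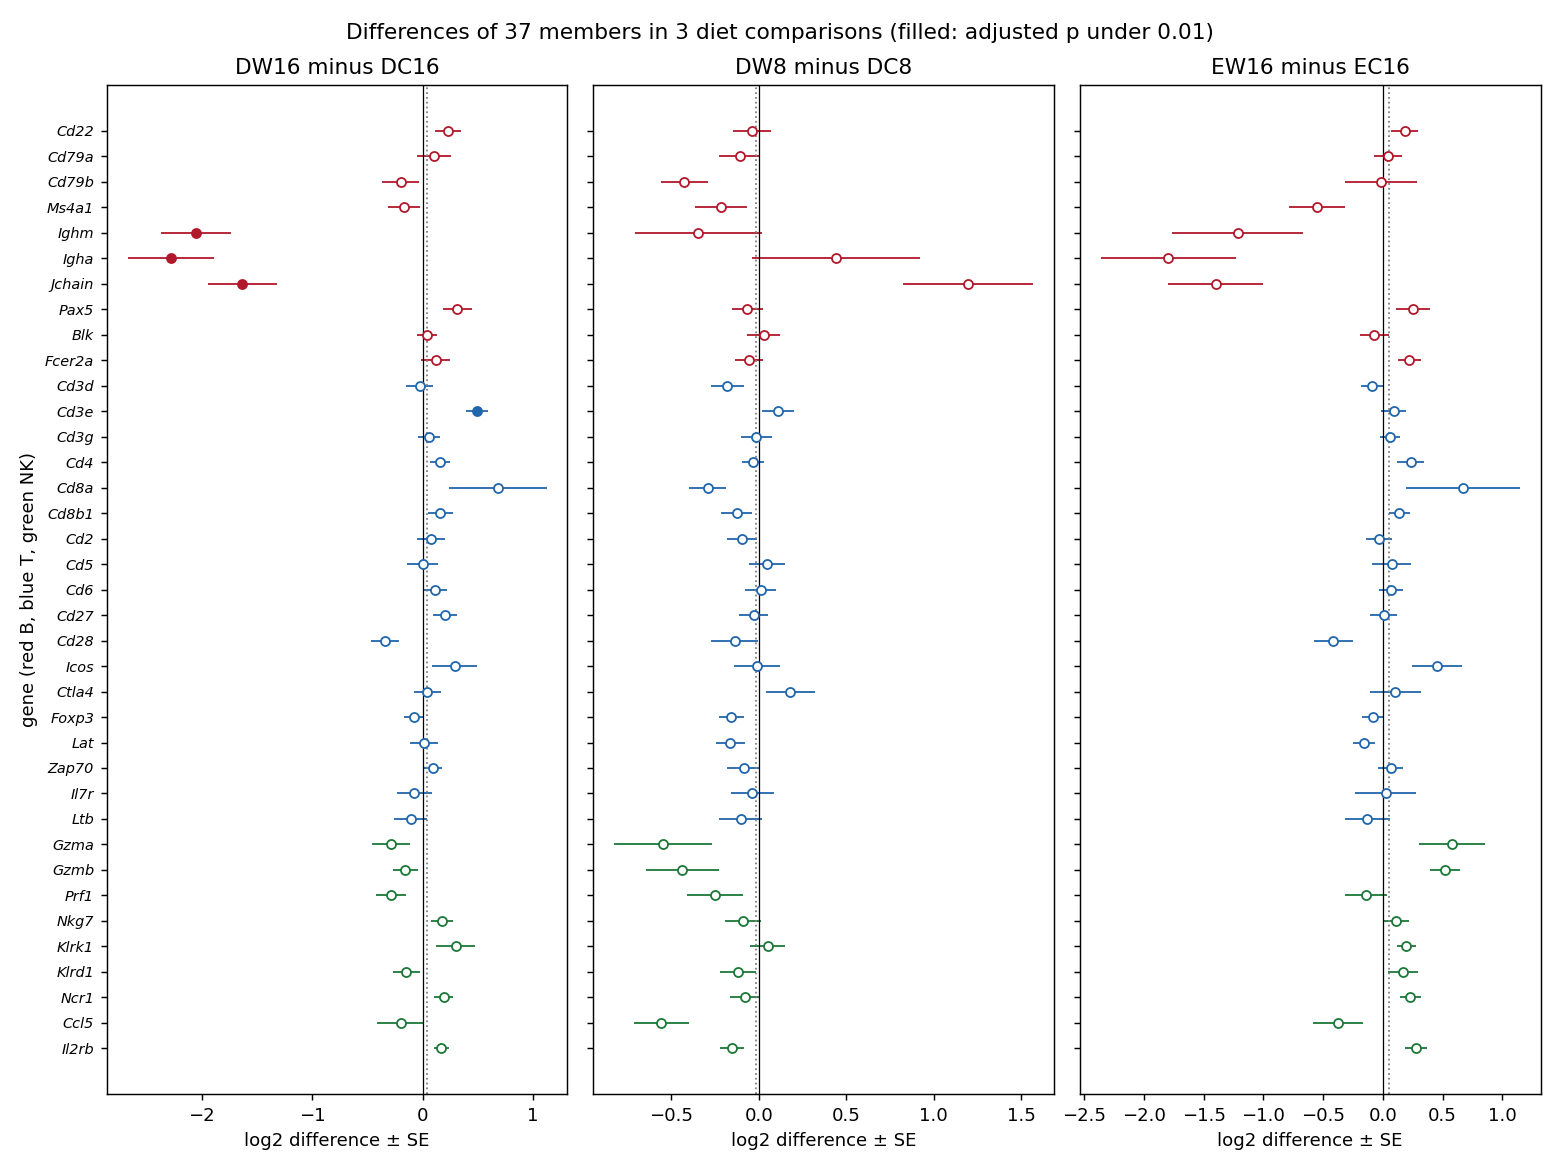
Log2 difference with SE (horizontal axis) of each of the 37 genes (vertical axis; red B, blue T, green NK) for DW16 minus DC16, DW8 minus DC8 and EW16 minus EC16, with filled points for adjusted p under 0.01, a solid line at 0 and a dotted line at the median of all probe sets. Igha at −2.28, Ighm at −2.05, Jchain at −1.63 and Cd3e at 0.49 are the filled points, all in DW16 minus DC16.

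Among the T cell genes Cd3e was the only one called, and it rose. Cd3e encodes a signalling chain of the T cell receptor complex. It ran between 6.35 and 6.89 in DW16 mice with a median of 6.66, against 6.08, 6.06, 6.26, 6.20 and 6.10 in DC16 mice. The groups did not overlap, and the difference was 0.49 (SE 0.0995, adjusted p = 0.00789). The partners of the same complex did not rise with it: Cd3d differed by −0.03 and Cd3g by 0.06. Cd3e was 6.67 to 6.89 on the 5 arrays with the lowest SD, from both genotypes, against 6.05 to 6.78 on the other 40. In DW16 mice 8 and 9, with ordinary arrays, it was 6.35 and 6.66, and without the narrow-range arrays the difference was 0.36 (adjusted p = 0.583). With array SD as a covariate it was 0.27 (adjusted p = 0.345). The call was also lost without any single DC16 mouse (adjusted p 0.0121 to 0.0276) and without DW16 mouse 2, 3, 4, 5, 6 or 7 (0.0127 to 0.0164). Of 20 genes of other organs (rod, testis and pituitary genes among them) 17 had positive differences in DW16 against DC16 mice, with a median of 0.194 and 0 called, 8 being higher and 2 lower at an unadjusted p under 0.05. The part in the Cd3e difference of whatever those genes read was not tested.

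Cd8a, the alpha chain of the CD8 co-receptor, differed most in size among the T genes and depended on the probe set. Its brightest probe set, 1440164_x_at, read 8.81, 9.29 and 8.56 in DW16 mice 2, 3 and 4 and 8.83 and 9.40 in EW16 mice 2 and 3. The other 40 mice lay between 5.97 and 7.63. Those 5 arrays were the 5 with the lowest SD of all 45, at 2.11 to 2.19. A further probe set, 1440811_x_at, did the same, with 6.75 to 8.73 on the 5 arrays against 3.78 to 5.89 on the others. The remaining 3 did not: 1425335_at read 5.48 to 5.61 against 5.10 to 5.79, 1444078_at 3.55 to 4.06 against 3.44 to 4.05, and 1451673_at 3.78 to 4.13 against 3.44 to 4.01. Cd8b1, the beta chain that pairs with it, averaged 4.41 in DW16 and 4.24 in DC16 mice. The Cd8a difference between DW16 and DC16 mice, 0.68, therefore rests on 3 mice and on probe sets that disagree. At 8 weeks Cd8a was the T gene with the smallest adjusted p in DW8 against DC8 mice: it was 6.20, 6.37, 6.15, 6.46 and 6.57 in DW8 mice, against 6.41 to 6.96 with a median of 6.64 in DC8 mice (difference −0.29, SE 0.106, adjusted p = 0.139). On 1451673_at the difference was 0.0285.

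**Figure D3:**
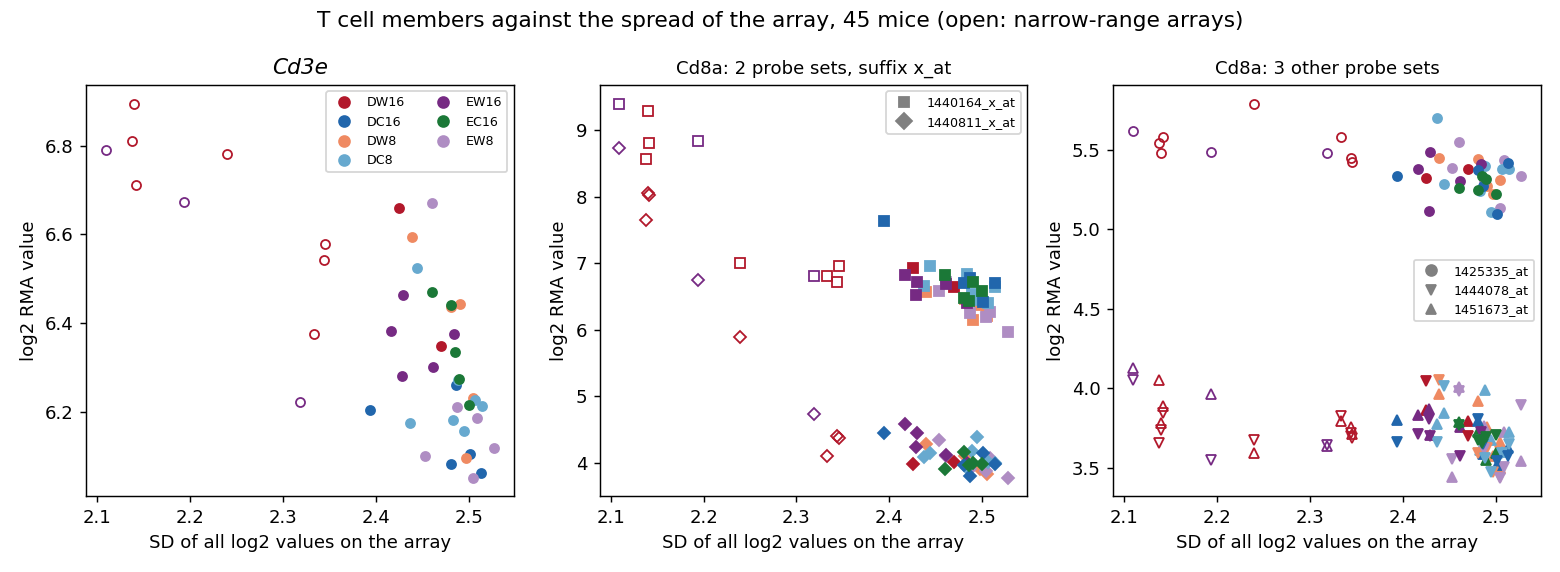
Log2 RMA value (vertical axis) of Cd3e and of the 5 probe sets of Cd8a against the SD of all values on the same array (horizontal axis) for 45 mice, with open symbols for narrow-range arrays. On the 5 arrays with an SD of 2.11 to 2.19 both Cd8a probe sets of the middle panel are above all others, at 8.56 to 9.40 and 6.75 to 8.73, while the 3 of the right panel keep their level.

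Co-stimulatory and regulatory T cell genes did not pass in any comparison. Cd28 was the T gene with the smallest adjusted p in EW16 against EC16 mice: it ran between 4.09 and 5.18 in EW16 mice with a median of 4.80, against 5.20, 5.40, 4.87, 5.07 and 5.18 in EC16 mice (difference −0.42, SE 0.165, adjusted p = 0.124). That difference was −0.11 with array SD as a covariate (adjusted p = 0.591), −0.20 without the narrow-range arrays (0.235) and −0.73 on the probe set 1417597_at (0.0214). In DW16 against DC16 mice it differed by −0.34 (adjusted p = 0.0700), with overlapping groups in both. Icos, induced on activated T cells, averaged 6.35 in DW16 and 6.96 in EW16 mice (difference −0.61, SE 0.198, adjusted p = 0.244). Foxp3, the transcription factor of regulatory T cells, differed by −0.08 in both DW16 against DC16 and EW16 against EC16 mice, and the checkpoint receptor Ctla4 by 0.04 and 0.10. Zap70, the kinase that acts after the receptor, averaged 8.43 in DW16, 8.33 in DC16, 8.47 in EW16 and 8.40 in EC16 mice. Over the 18 T genes the median difference was 0.066 in DW16 against DC16, −0.061 in DW8 against DC8 and 0.063 in EW16 against EC16 mice, beside 0.040, −0.016 and 0.055 over all probe sets. The sign turned after quantile normalization in DW16 against DC16 (−0.0092) and EW16 against EC16 mice (−0.0094), and in the second of these also with the replicate block (−0.015).

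No NK or cytotoxic gene passed in any of the 11 comparisons, and the 3 with the largest SD over the 45 mice are given as a description. Gzma, granzyme A, had an SD of 0.55. It averaged 6.13 ± 0.31 in DW16, 6.41 ± 0.36 in DC16, 6.32 ± 0.62 in DW8, 6.87 ± 0.52 in DC8, 6.97 ± 0.64 in EW16, 6.40 ± 0.27 in EC16 and 6.88 ± 0.40 in EW8 mice (SD). EW16 stood at the top of this order and DW16 at the bottom, and the widest gap between neighbours, DC16 minus DC8, was −0.46 (adjusted p = 0.612), less than the SD of DC8. Gzmb, granzyme B (SD 0.41), ran in the same way, with 5.70 ± 0.19 in DW16, 5.86 ± 0.20 in DC16, 5.72 ± 0.48 in DW8, 6.15 ± 0.36 in DC8, 6.25 ± 0.27 in EW16, 5.74 ± 0.09 in EC16 and 6.17 ± 0.66 in EW8 mice. Ccl5, a chemokine of cytotoxic lymphocytes (SD 0.45), did not share that order and was 8.81 ± 0.32 in DW16, 9.01 ± 0.56 in DC16, 9.02 ± 0.21 in DW8, 9.57 ± 0.35 in DC8, 8.82 ± 0.48 in EW16, 9.19 ± 0.19 in EC16 and 9.26 ± 0.42 in EW8 mice.

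**Figure D4:**
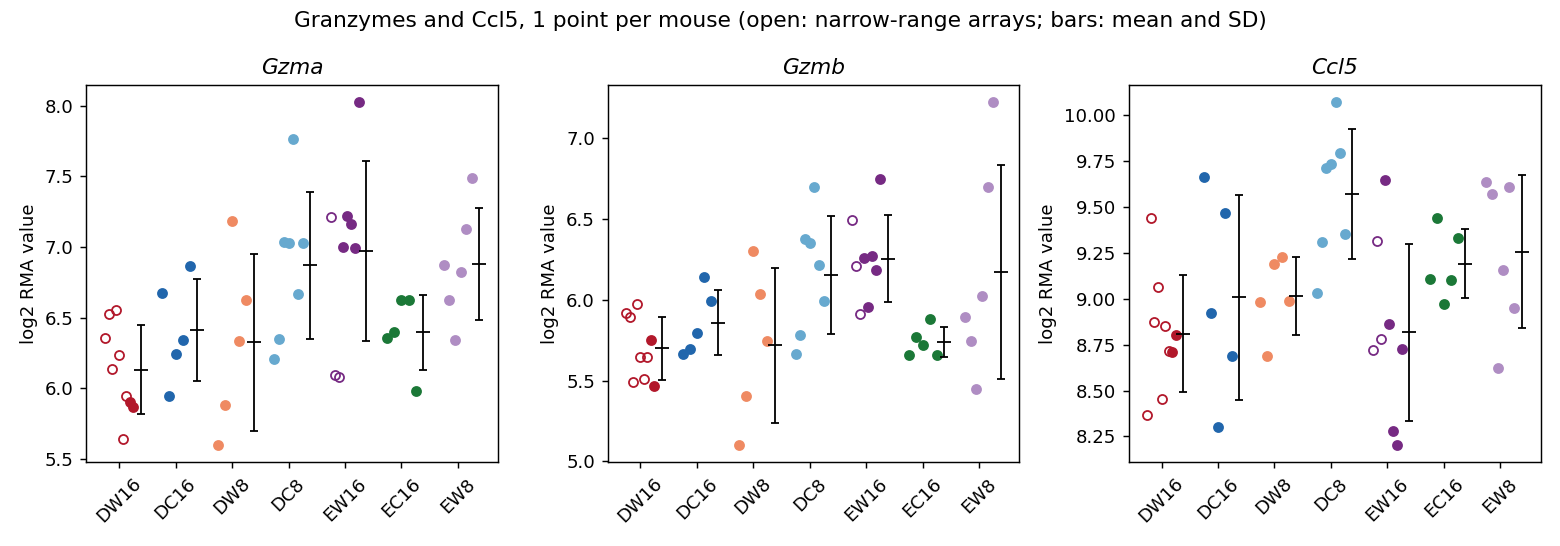
Log2 RMA value (vertical axis) of Gzma, Gzmb and Ccl5 in each of the 45 mice by group (horizontal axis), with open points for the 10 narrow-range arrays and bars for mean and SD. Gzmb in EW16 mice, at 5.91 to 6.75, lies above all EC16 mice, at 5.66 to 5.88.

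The granzymes had diet differences of opposite sign in the 2 genotypes, and none passed. Gzmb was 5.91 to 6.75 in the 8 EW16 mice with a median of 6.23, against 5.66, 5.77, 5.72, 5.88 and 5.66 in EC16 mice. The groups did not overlap, and the difference was 0.52 (SE 0.126, adjusted p = 0.0214). Between these groups 27.7% of all probe sets had an unadjusted p under 0.05, and the share without overlap was not counted. Without the 3 narrow-range arrays it was 0.55 (adjusted p = 0.0118). In DW16 against DC16 mice Gzmb differed by −0.16 and Gzma by −0.28, against 0.52 and 0.58 in EW16 against EC16 mice. In the first of these comparisons 0 of 9 NK genes were lower at an unadjusted p under 0.05 in limma, so the negative signs in D mice were not told apart from no difference. Prf1, which encodes perforin, did not share the opposite signs. It averaged 5.10 in DW16 and 5.39 in DC16 mice, and 5.29 in EW16 and 5.43 in EC16 mice. The difference of the diet effects was −0.68 for Gzmb (SE 0.168, unadjusted p = 0.000443, adjusted p = 0.786) and −0.86 for Gzma (SE 0.334, adjusted p = 0.786). Set side by side on the Western diet, DW16 minus EW16 was −0.55 in Gzmb and −0.84 in Gzma (SE 0.114 and 0.224, adjusted p = 0.241 for both).

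At 8 weeks 8 of the 9 NK genes had lower means in DW8 than in DC8 mice, as had 29 of all 37 genes. Positive differences were found in only 3 of 10 B genes, 4 of 18 T genes and 3 of 14 other NK and cytotoxic genes. The share of negative signs over all probe sets was not counted. The median difference of the 9 NK genes was −0.155, beside −0.016 over all probe sets. Ccl5 had the smallest adjusted p of the 37 genes here: it was 8.98, 8.69, 9.19, 9.23 and 8.99 in DW8 mice, against 9.03 to 10.07 with a median of 9.72 in DC8 mice. The groups overlapped in their ends only, and the difference was −0.56 (SE 0.158, adjusted p = 0.0589). At 16 weeks the signs were mixed: 4 of 9 were positive in DW16 against DC16 mice (median −0.147, or 0.062 after quantile normalization, a change of sign) and 7 of 9 in EW16 against EC16 mice (median 0.197). Il2rb, a receptor subunit for interleukins 2 and 15, had the smallest adjusted p of the NK genes in DW16 against DC16 mice, at 4.99 to 5.19 with a median of 5.06 in DW16 and 4.82, 5.02, 4.88, 4.91 and 4.91 in DC16 mice (difference 0.17, SE 0.0681, adjusted p = 0.0819). Il2rb and Ncr1, the activating receptor NKp46, differed between EW16 and EW8 mice by 0.34 and 0.33 (SE 0.0970 and 0.0786, adjusted p = 0.0411 and 0.0198). In that comparison 0 of 37 genes passed, with 1.57% of probe sets called and 12 genes at an unadjusted p under 0.05, all higher in EW16, against 30.4% of all probe sets (15.6% higher). Of the 20 genes of other organs 10 were higher and 0 lower at that threshold.

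From mouse to mouse the 3 immunoglobulin genes had the largest SDs of the 37. Within groups, Igha had an SD of 1.01, Ighm 0.87 and Jchain 0.82, followed by Cd8a at 0.72 on the probe set described above, and over all 45 mice their SDs exceeded those of 99.8% or more of all probe sets. The median SD within groups was 0.293 for B, 0.186 for T and 0.235 for NK genes, beside 0.228 for all probe sets and 0.174 for the 20 genes of other organs. Single mice had their own immunoglobulin pattern. DC8 mouse 5 had the highest Ighm of its group, 12.43, and the lowest Igha and Jchain, 7.73 and 5.38. EW8 mouse 6 was highest of all 45 mice in Ighm (13.32) and Jchain (10.60) and had the highest Igha of its group (11.06).

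Pairs of genes that rose and fell together within groups are given as correlations of deviations from the group mean, over 45 mice that share array processing and the makeup of the sample. Igha and Jchain correlated at r = 0.61 and Ighm and Jchain at 0.59 (0.60 and 0.49 over the 35 mice with ordinary arrays). Ighm and Igha, by contrast, correlated at 0.17 (−0.03 over the 35 mice). Among the NK and cytotoxic genes Gzma and Gzmb correlated at 0.75, Gzmb and Nkg7, of cytotoxic granules, at 0.74 and Gzma and Nkg7 at 0.67 (0.80, 0.77 and 0.69 over the 35 mice). Prf1, which encodes perforin, was highest of its group together with both granzymes in EW16 mouse 8, at 6.01. In EW8 mouse 6, also highest of its group in both granzymes, Prf1 was 4.94 in a group range of 4.91 to 5.19. Cd79b and Ltb, a cytokine of lymphoid tissue organisation, correlated at 0.58 (0.62). Ighm and Pax5 ran against each other, at −0.53 (−0.55). Most pairs were only weakly related: the median r was 0.14 over 45 pairs of B genes, 0.12 over 153 pairs of T genes and 0.16 over 36 pairs of NK genes, beside 0.14 for genes of other organs and 0.53 for 12 macrophage markers. For single pairs r ran from −0.53 to 0.61 in B genes, −0.48 to 0.66 in T genes and −0.30 to 0.75 in NK genes. In 190 pairs of genes of other organs it ran from −0.58 to 0.80, and the named pairs lie within that range over the 45 mice. Over the 35 mice those 190 pairs ran from −0.53 to 0.68.

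**Figure D5:**
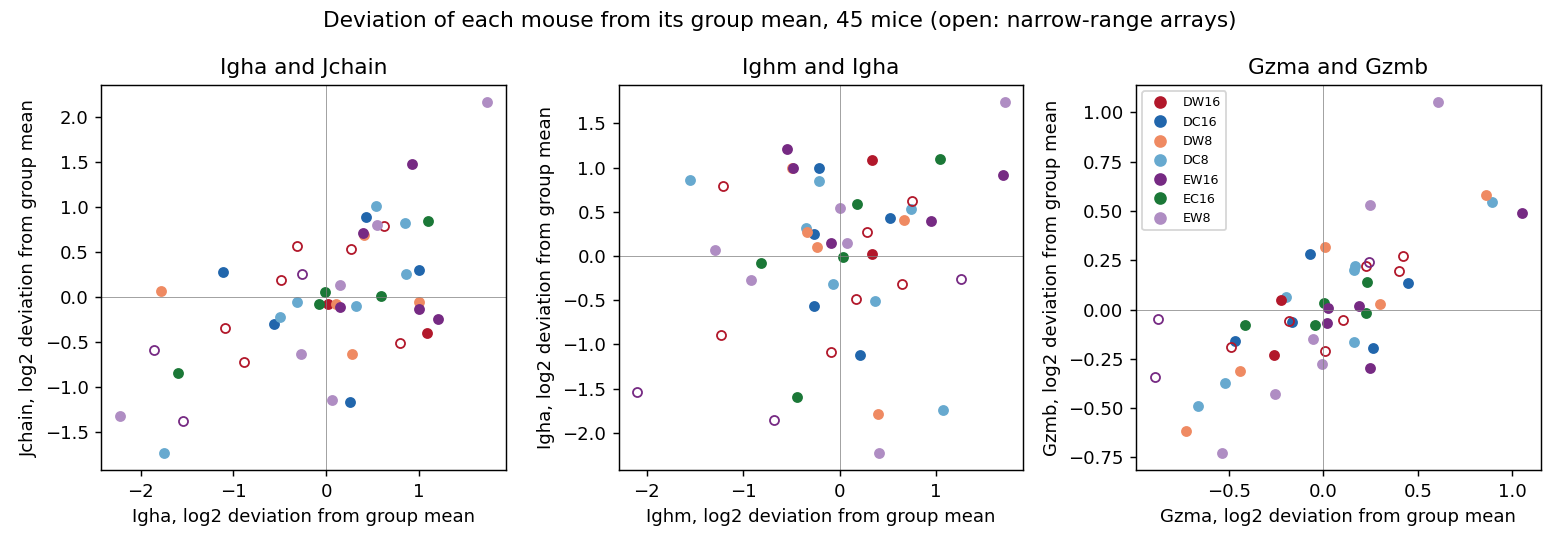
Deviation of each mouse from its group mean in log2 units for Igha (horizontal axis) and Jchain (vertical axis), Ighm and Igha, and Gzma and Gzmb, 45 mice coloured by group, with open points for narrow-range arrays. Jchain follows Igha (r = 0.61) and Gzmb follows Gzma (r = 0.75), while Igha shows little relation to Ighm (r = 0.17).

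Further genes of the same lineages, not among the 37, were counted as lists. Of 22 other B and plasma cell genes 0 passed in DW16 against DC16 mice, with a median difference of −0.009; Mzb1, a chaperone of antibody assembly, differed by 0.47 (adjusted p = 0.0134), and Pou2af1, a co-activator of immunoglobulin genes, by −0.51 (adjusted p = 0.0297). Of 17 other T cell genes 0 passed (median 0.128), the smallest adjusted p being those of Bcl11b (0.40, 0.0163) and Gata3 (−0.62, 0.0243), and Gata3 fell in EW16 against EC16 mice (−0.71, adjusted p = 0.00898). Of 14 other NK and cytotoxic genes 0 passed (median 0.034). Of 7 chemokines and cytokines that serve lymphocytes, Il15, a growth factor of NK cells, fell in DW16 mice, with a mean of 5.79 against 6.61 in DC16 mice (−0.82, SE 0.150, adjusted p = 0.00556). Genes of other cells called lower in DW16 mice were Lyz2 of macrophages (1 of 12 called), Cebpa of adipocytes (1 of 8), Pecam1 of endothelium (1 of 8) and Lrrn4 of mesothelium (1 of 6), with list medians of −0.630, −0.710, −0.843 and −0.760. On the whole array 2.63% of probe sets were called lower. In DW16 mice 8 and 9, with ordinary arrays, the means of these lists lay within the DC16 range (mesothelial 7.23 to 7.87, against 6.56 to 7.93). Without the narrow-range arrays 0 probe sets of the whole array passed, so none of these calls, nor that of Il15, remained. In EW16 against EC16 mice the called genes of these lists were mesothelial (3 of 6 lower, median −1.096), and in DW8 against DC8 mice 0 genes of any list passed. The part of these cell types in the immunoglobulin differences was not tested.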

How the data were processed

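Adipocyte RNA of 45 mice was hybridized by the authors to 1 array each and scanned with MAS global scaling; the deposited values are log2 RMA expression made with RMA express, whose version is not given in the sources used here. All columns of the value table were used (0 left out). Of 45037 probe sets 34945 carry 1 gene symbol in the platform annotation, 932 several and 9160 none; only single symbols were used for genes, and 14 of the 37 genes had more than 1 probe set. The genes, gene lists and tests were chosen with earlier results of these data known.

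For each of 9 comparisons of 2 groups and 2 interactions a linear model was fitted with limma 3.58.1 (lmFit, eBayes; R 4.3.3) on the groups compared, without a filter on level, p-values being adjusted by Benjamini and Hochberg's method over the whole array, with 0.01 as threshold. Differences are in log2 units, as the group named first minus the other. SAM, rewritten in Python 3.11.15 with NumPy 2.4.6 (100 permutations, q under 0.01), was run for the 3 diet comparisons, where its calls of members were those of limma. Genes described per mouse were those called in any comparison, those with the smallest adjusted p of their lineage in a diet comparison, and the 3 most variable NK genes, since none was called; Cd3d, Cd3g, Cd8b1, Pax5, Icos and similar neighbours were named after their values had been seen. Of the other lists (15 in all) those with the 2 smallest adjusted p were named. Alternatives were a further quantile normalization, median centring, a spread shared by 7 groups, probe sets above the median level, a threshold of 0.05, array SD as a covariate, a fit without the narrow-range arrays (a boundary known from those earlier results), a replicate block and the omission of single mice. The fits were tested on simulated data. Each array is 1 mouse, and the number of mice limits the precision. Promoters are RefSeq windows of GRCm38.p6. Plots were drawn with Matplotlib 3.10.9.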

Additional observations from a re-analysis of the deposited data

Results flagged for a closer look

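Within single groups, 16 of 259 tests of a gene in a group of 5 to 9 mice found the highest or lowest mouse far from the rest by Dixon's criterion, which chance alone would give in about 1 of 20. In B genes these were Cd79a and Cd79b in DC16 mouse 4 (5.71 and 5.92, high), Cd79b in EW16 mouse 1 (7.18, high), Ms4a1 in EW8 mouse 6 (5.27, high) and Pax5 in EC16 mouse 3 (4.81, low). EW16 mouse 1 was high in Ltb as well (5.88).

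In T genes they were Cd3d in DW8 mouse 2 (4.49, low), Cd3e in DC8 mouse 1 (6.52, high), Cd3e and Cd4 in EW8 mouse 5 (6.67 and 6.55, high), Cd4 in DC8 mouse 3 (6.16, low) and in EW16 mouse 3 (7.04, high, on the array with the lowest SD of all 45) and Lat in EC16 mouse 1 (6.45, high). In NK genes they were Klrk1 in EW8 mouse 3 (3.50, low) and Klrd1 in DW8 mouse 3 (4.70, high) and in EW8 mouse 5 (4.88, high). EW8 mouse 5 was thus flagged in 3 genes of T and NK cells, and DC16 mouse 4 and EW16 mouse 1 in 2 genes each. The total of flags is near the share that chance alone would give. None was tested further.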

How the results depend on the processing

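The 4 calls of DW16 against DC16 mice became 0 with array SD as a covariate and 0 without the narrow-range arrays (3 and 0 probe sets of the whole array, in place of 1545), and 0 to 4 when single mice were left out; quantile normalization and the replicate block each left 3 (Jchain lost, adjusted p = 0.0147 and 0.0236), and median centring left 4. The 2 calls of DW16 against DW8 mice became 1 after quantile normalization (Zap70), 5 at a threshold of 0.05, 4 with the replicate block, 0 with array SD, 0 without narrow-range arrays (10357, 8076, 2 and 1 probe sets in all, in place of 2436), and 0 to 3 when single mice were left out. The 0 calls of EW16 against EC16 mice became 1 with a spread shared by 7 groups (Il2rb) and 2 at 0.05 (Jchain and Gzmb), with 3284 and 4170 probe sets in place of 1200. Those of EW16 against EW8 mice became 2 and 3 (Ncr1 and Il2rb, with Cd3g at 0.05), with 4099 and 4497 in place of 706. Those of the diet effect by duration became 1 among probe sets above the median level (Jchain), 4 at 0.05, 2 with the replicate block (24, 2910 and 5117 probe sets in all, in place of 2) and 0 to 2 when single mice were left out. In other comparisons the count stayed at 0.

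Ighm turned positive in DW16 against DC16 mice on 7 dimmer probe sets: 0.043 (1427870_x_at), 0.320 (1425385_a_at), 0.049 (1425247_a_at), 0.232 (1452535_at), 0.375 (1451949_at), 0.022 (1427869_at) and 0.179 (1426196_at). Cd8a turned positive in DW8 against DC8 mice on 1451673_at (0.0285). The cause of these changes was not tested. Same-numbered mice correlated between −0.437 and 0.532, and nothing in the labels pairs them, so the replicate block is given only as a setting.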
